A study of Mus musculus with 4 samples.

Results

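The genes of de novo lipogenesis were followed in gastrocnemius muscle by RNA-seq. The 10 genes, Fasn, Scd1, Scd2, Acaca, Acacb, Acly, Elovl6, Srebf1, Thrsp and Me1, were taken by their names. They were 10 of the 22252 gene names in the deposited counts, and each had counts above 0 in all 4 libraries, as did 14206 gene names in total.

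The study compared lean and ob/ob mice with or without the glucocorticoid receptor (GR, encoded by Nr3c1) in myofibres. Lean GRf/f mice carried floxed Nr3c1 on both alleles, no Cre and normal leptin alleles (Lep+/+), and lean GRmKO mice carried Cre in addition. The ob/ob GRf/f and ob/ob GRmKO mice had the same Nr3c1 and Cre genotypes on a Lep ob/ob background, which lacks functional leptin, so all 4 groups had floxed Nr3c1. All were 7-week-old males of the strain C57BL/6J. Cre was driven by Acta1, the skeletal muscle actin gene, and removed exon 3 in myofibres only, so other cells of the muscle kept the receptor. Each group was a single library prepared from a pool of RNA from 3 mice, so the spread between mice was not measured and no p-value was computed. The feeding state of the mice at collection is not given in the sources used here. All intervals below are 95% intervals for counting error alone.

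Lipogenesis turns surplus carbohydrate into fatty acids. Citrate is split to acetyl-CoA, which is carboxylated to malonyl-CoA, condensed to palmitate with NADPH as reductant, and then elongated and desaturated. Liver and adipose tissue carry most of this flux. In muscle, malonyl-CoA also acts as the brake on fatty acid entry into mitochondria.

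Libraries held from 19897754 to 20959781 expected counts, and values are given as CPM, a gene's counts scaled to the library total. A count of 3 corresponded to between 0.143 and 0.151 CPM. Nr3c1 stood at 125 CPM in lean GRf/f, 67.0 in lean GRmKO, 102 in ob/ob GRf/f and 39.1 in ob/ob GRmKO mice, lower in both knockout libraries. These counts cover the whole transcript, not exon 3 alone, and all cells of the muscle. Muscle markers were abundant throughout, with Ckm between 11811 and 14535 CPM and Myh4 between 20868 and 37872 CPM. A gene was called where 2 libraries differed by at least 2-fold and 1 of them had at least 50 counts. The median log2 ratio of all 14206 genes was -0.11 for ob/ob against lean GRf/f mice, -0.21 for ob/ob against lean GRmKO mice, 0.05 for GRmKO against GRf/f in lean mice and -0.04 in ob/ob mice. The balance of calls over all genes depended on scaling. For ob/ob against lean GRf/f mice, 216 genes were higher and 384 lower by CPM, against 272 and 302 by TMM factors. For ob/ob against lean GRmKO mice, 187 were higher and 863 lower by CPM, against 320 and 508 by TMM factors.

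Start-site sequences are shown for Elovl6 and Thrsp, which were called in opposite directions with obesity, and for Fasn, the central synthase. Each runs from 250 bases before to 50 bases after the RefSeq start site on GRCm38.p6, written 5′ to 3′ along the gene's strand. Capitals mark CCAAT boxes on either strand (CCAAT or ATTGG). The Elovl6 window is chr3:129532136-129532435 (plus strand), the Thrsp window chr7:97417501-97417800 (minus strand), and the Fasn window chr11:120824498-120824797 (minus strand).
Elovl6: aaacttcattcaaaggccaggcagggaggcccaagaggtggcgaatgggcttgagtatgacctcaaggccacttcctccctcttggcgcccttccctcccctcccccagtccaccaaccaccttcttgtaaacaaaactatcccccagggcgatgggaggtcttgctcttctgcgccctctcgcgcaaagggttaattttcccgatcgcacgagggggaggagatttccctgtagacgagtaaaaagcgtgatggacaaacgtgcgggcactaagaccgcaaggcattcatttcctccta
Thrsp: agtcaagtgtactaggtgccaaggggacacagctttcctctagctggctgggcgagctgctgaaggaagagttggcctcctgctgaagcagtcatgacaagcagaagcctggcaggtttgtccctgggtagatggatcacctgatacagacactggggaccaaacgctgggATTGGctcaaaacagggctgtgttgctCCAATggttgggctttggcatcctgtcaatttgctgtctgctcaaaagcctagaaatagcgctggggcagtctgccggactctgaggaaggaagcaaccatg
Fasn: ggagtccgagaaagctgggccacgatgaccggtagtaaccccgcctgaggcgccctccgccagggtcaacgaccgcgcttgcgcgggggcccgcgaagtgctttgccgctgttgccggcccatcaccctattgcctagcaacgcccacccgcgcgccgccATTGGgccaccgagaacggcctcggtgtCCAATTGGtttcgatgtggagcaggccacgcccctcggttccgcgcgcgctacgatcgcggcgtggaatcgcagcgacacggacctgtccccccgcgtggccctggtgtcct

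RefSeq windows were found for 8 of the 10 genes (11 windows), and Scd1 and Scd2 had none. Thrsp held 2 CCAAT boxes, beginning 79 and 52 bases before its start site. Fasn held 3, beginning 90, 62 and 59 bases before it, the last 2 overlapping on opposite strands. Elovl6 held none. The motif is common, being in 37.4% of 32851 RefSeq windows of the same length. Neither the sterol regulatory element TCACNCCAC, a binding sequence of SREBP proteins present in 1.24% of all windows, nor the E-box CACGTG, in 7.15% of all windows, was found in any of the 11 windows. The GR half-site TGTTCT, in 18.97% of all windows, was found once among them, beginning 57 bases before the Acaca start site. The GC box GGGCGG, in 35.7% of all windows, was found 4 times in the Acly window, 4 times in 1 of the Me1 windows, and 3 and 2 times in 2 of the Srebf1 windows. All motifs were searched on both strands. These are letter matches within short windows. With the sterol regulatory element in 1.24% of all windows, finding none in 11 is close to that share. The RefSeq start site was not always that of the transcript listed with the counts. In genomic position it differed by 452 bases for Fasn, 4402 for Acly, -180 for Thrsp and 0 for Elovl6.

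Scd1 and Scd2, neighbouring genes on chromosome 19 that encode stearoyl-CoA desaturases, share sequence that a short read cannot assign to one of them. Their coding regions were identical at 962 of 1065 aligned bases (90.3%). The longest identical run was 147 bases, spanning exons 4 and 5 of each gene on GRCm38 (chr19:44400341-44401805, minus strand, for Scd1 and chr19:44299702-44301245, plus strand, for Scd2). It is shown because a read that lies wholly within it matches both genes equally. Capitals mark the 34 bases in exon 5.
Shared run of Scd1 and Scd2: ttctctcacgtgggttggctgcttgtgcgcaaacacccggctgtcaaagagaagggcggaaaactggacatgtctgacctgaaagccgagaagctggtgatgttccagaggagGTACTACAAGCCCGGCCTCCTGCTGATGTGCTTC

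Of all 100-base windows, 2.64% of the Scd1 transcript and 0.896% of the Scd2 transcript also occurred in another Scd gene, whereas the other 8 genes shared none. No member overlapped another gene on its strand.

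Per kilobase of transcript, Scd1 was the most abundant of the 10 genes in each library, at 165 CPM per kb in lean GRf/f, 94.6 in lean GRmKO, 215 in ob/ob GRf/f and 189 in ob/ob GRmKO mice. Me1 came next in each library, between 75.4 and 99.2 CPM per kb. Elovl6 was the lowest, between 0.850 and 2.64 CPM per kb. The middle of the order varied between libraries. Thrsp was the third most abundant in both lean libraries, at 42.3 and 30.0 CPM per kb in GRf/f and GRmKO mice. It lay below Acacb in both ob/ob libraries, at 18.4 and 23.8 CPM per kb, where Acacb stood at 32.6 and 28.7.

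**Figure D1:**
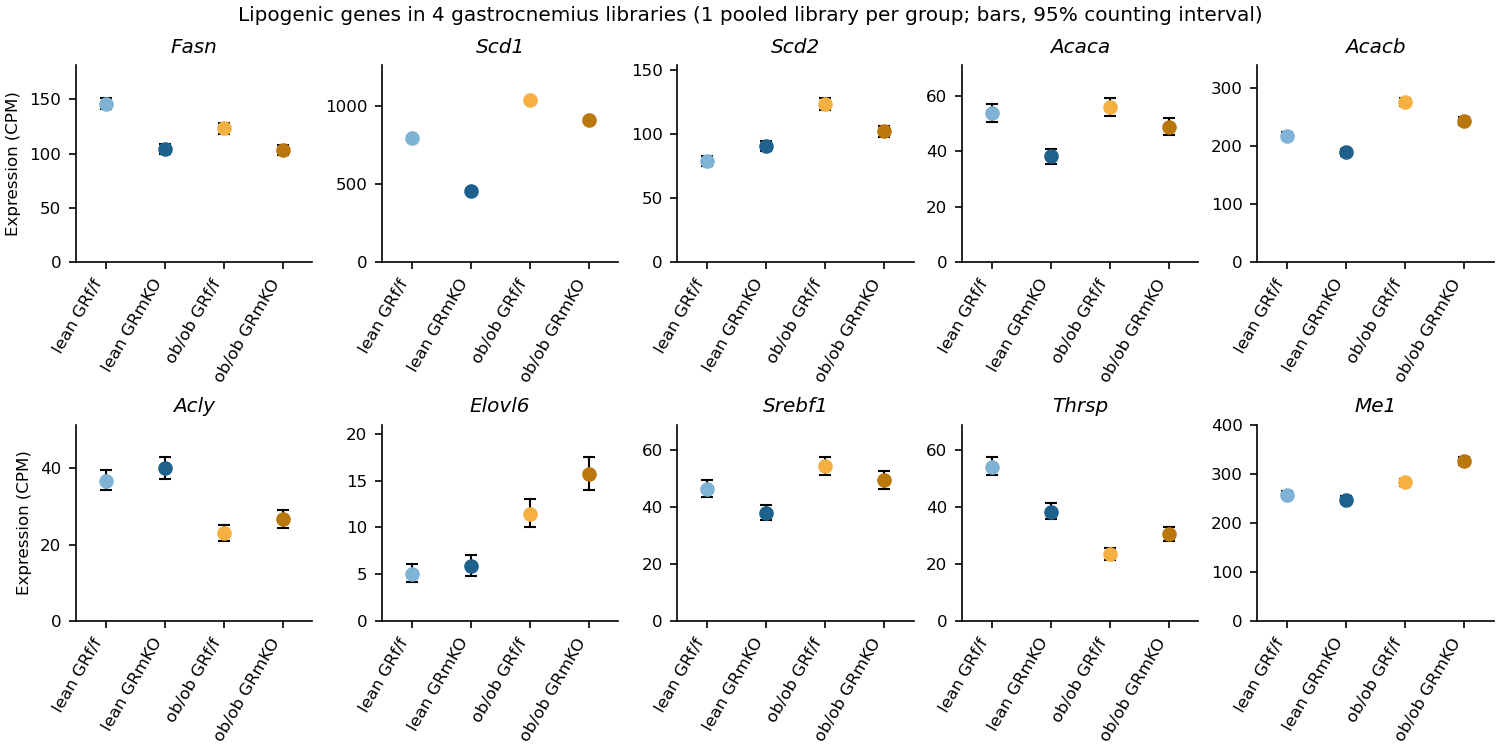
Expression of each lipogenic gene in CPM (linear vertical axes from 0) in the 4 libraries, 1 point per library, with 95% counting intervals. Elovl6 is higher and Thrsp and Acly are lower in the 2 ob/ob libraries, and Scd1 is lowest in the lean GRmKO library at 457 CPM.

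Precursor and reductant supply were examined first. Acly, the enzyme that splits citrate to cytosolic acetyl-CoA, stood at 36.8 CPM in lean GRf/f (interval 34.3 to 39.6), 40.1 in lean GRmKO (37.3 to 42.9), 23.1 in ob/ob GRf/f (21.1 to 25.2) and 26.7 in ob/ob GRmKO mice (24.5 to 29.0). Both ob/ob libraries lay below both lean libraries. The ratio of ob/ob to lean was 0.627 in GRf/f mice (0.558 to 0.703) and 0.666 in GRmKO mice (0.597 to 0.743), short of the 2-fold threshold in each. Me1, the cytosolic malic enzyme that yields NADPH, stood at 258 CPM in lean GRf/f, 248 in lean GRmKO, 283 in ob/ob GRf/f and 326 in ob/ob GRmKO mice. Its 4 libraries spanned a 1.32-fold range, the narrowest of the 10 genes.

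Acaca and Acacb encode the acetyl-CoA carboxylases, the first cytosolic and the second attached to mitochondria. Acaca stood at 53.8 CPM in lean GRf/f (50.7 to 57.1), 38.2 in lean GRmKO (35.5 to 40.96), 55.9 in ob/ob GRf/f (52.8 to 59.2) and 48.8 in ob/ob GRmKO mice (45.8 to 51.9). The lean GRmKO library was the lowest, and the 2 GRf/f libraries had overlapping counting intervals. Acacb stood at 218, 189, 276 and 244 CPM in the same order. It too was lowest in the lean GRmKO library, and both ob/ob libraries lay above both lean ones. Counts of Acacb exceeded those of Acaca 4.05-fold in lean GRf/f (3.79 to 4.33), 4.96-fold in lean GRmKO (4.59 to 5.37), 4.94-fold in ob/ob GRf/f (4.64 to 5.26) and 4.99-fold in ob/ob GRmKO mice (4.67 to 5.35). The transcripts are of like length, so the mitochondrial isoform was the more abundant in every library.

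Fasn, the synthase that builds palmitate, stood at 146 CPM in lean GRf/f (141 to 151), 104 in lean GRmKO (99.5 to 109), 123 in ob/ob GRf/f (119 to 128) and 103 in ob/ob GRmKO mice (99.1 to 108). Its level was highest in lean GRf/f mice, and the 2 GRmKO libraries had overlapping intervals. Ratios of ob/ob to lean were 0.844 in GRf/f (0.800 to 0.889) and 0.994 in GRmKO mice (0.936 to 1.06). On the log2 scale the second was -0.01 by CPM but between 0.07 and 0.21 under the 5 other scalings, so its direction was not settled.

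Elovl6, which elongates palmitate to stearate, was the gene called in both obesity comparisons. It stood at 5.06 CPM in lean GRf/f (105 counts, interval 4.14 to 6.12), 5.90 in lean GRmKO (117 counts, 4.86 to 7.05), 11.4 in ob/ob GRf/f (240 counts, 10.05 to 13.0) and 15.7 CPM in ob/ob GRmKO mice (329 counts, 14.1 to 17.5). The lean and ob/ob intervals did not overlap. In GRf/f mice Elovl6 rose 2.26-fold with obesity (1.79 to 2.88), and in GRmKO mice it rose 2.66-fold (2.16 to 3.33). Relative to the median of all genes the log2 changes were 1.29 and 1.62. The lower bound in GRf/f mice was below the 2-fold threshold. NOISeq-sim, a method that draws technical replicates from each library, did not call Elovl6 in GRf/f mice, at a probability of 0.850 against a threshold of 0.9, and called it in GRmKO mice at 0.913.

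Scd1, the main desaturase converting stearate to oleate, stood at 795 CPM in lean GRf/f (783 to 807), 457 in lean GRmKO (448 to 467), 1041 in ob/ob GRf/f (1027 to 1054) and 912 in ob/ob GRmKO mice (899 to 925). The lean GRmKO library was far below the other 3. The ratio of ob/ob to lean was 1.31 in GRf/f mice (1.28 to 1.34) and 1.99 in GRmKO mice (1.94 to 2.04). The second missed the threshold by CPM but passed it under each of the 5 other scalings, at a log2 ratio between 1.07 and 1.21, and NOISeq-sim called it at a probability of 0.911. The difference between the 2 log2 changes was 0.61, with a counting SE of 0.024. Within lean mice, Scd1 was 1.74-fold lower in GRmKO than in GRf/f mice, the largest genotype difference of the 10 genes, and was not called. In ob/ob mice it was 1.14-fold lower.

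Scd2, the isoform abundant in nervous tissue, stood at 78.9 CPM in lean GRf/f (75.1 to 82.8), 90.7 in lean GRmKO (86.58 to 94.997), 123 in ob/ob GRf/f (119 to 128) and 102 in ob/ob GRmKO mice (98.0 to 107). It did not share the dip of Scd1 in lean GRmKO mice. The counts of Scd1 were 10.1 times those of Scd2 in lean GRf/f, 5.04 times in lean GRmKO, 8.43 times in ob/ob GRf/f and 8.92 times in ob/ob GRmKO mice. Obesity differences of Scd2 were 0.65 on the log2 scale in GRf/f and 0.17 in GRmKO mice, neither called. Markers of Schwann cells, which myelinate nerve in muscle, summed to 310 CPM in lean GRf/f, 390 in lean GRmKO, 411 in ob/ob GRf/f and 341 in ob/ob GRmKO mice over 9 genes. Of 8 tested, all 8 were higher in ob/ob than in lean GRf/f mice, whereas in GRmKO mice obesity went with higher values for 2 of them and lower values for 6. In the first comparison 1 was called higher, beside 1.52% of all genes, and in the second none was called in either direction. The called gene was Ncmap, with 2.91 CPM in the lean GRf/f and 6.42 CPM in the ob/ob GRf/f library, named after its values were seen. The myelin gene Prx, not called, stood at 11.96, 12.05, 21.97 and 21.95 CPM. The summed markers, like Scd2, were lowest in lean GRf/f and highest in ob/ob GRf/f mice, and the 2 GRmKO libraries between them stood in the opposite order to Scd2. The part of nerve content in the Scd2 values was not tested.

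**Figure D2:**
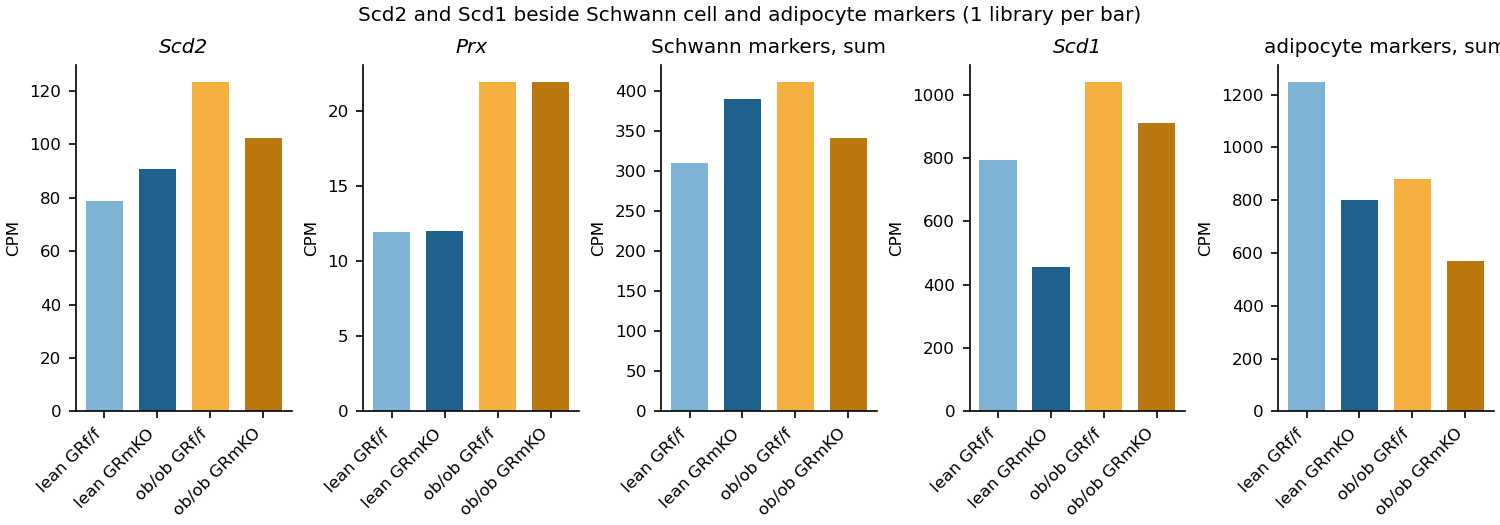
Levels in CPM (vertical axes from 0, 1 library per bar) of Scd2, the Schwann cell gene Prx, the sum of 9 Schwann cell markers, Scd1 and the sum of 11 white adipocyte markers. Scd2 and the Schwann cell sum are both lowest in lean GRf/f and highest in ob/ob GRf/f mice, whereas Scd1 is lowest in lean GRmKO mice.

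Srebf1 encodes the transcription factors SREBP-1a and SREBP-1c, the latter the insulin-responsive activator of lipogenic genes. It stood at 46.4 CPM in lean GRf/f (43.6 to 49.5), 38.1 in lean GRmKO (35.4 to 40.9), 54.4 in ob/ob GRf/f (51.2 to 57.6) and 49.5 in ob/ob GRmKO mice (46.5 to 52.6). The ratio of ob/ob to lean was 1.17 in GRf/f and 1.30 in GRmKO mice, so no call was made. RefSeq lists 3 start sites for the gene, which the counts per gene do not separate. Counts of Srebf1 over Srebf2, its sterol-regulating paralog, were 1.15 in lean GRf/f (1.05 to 1.26), 0.907 in lean GRmKO (0.821 to 1.002), 1.80 in ob/ob GRf/f (1.63 to 1.98) and 1.79 in ob/ob GRmKO mice (1.62 to 1.99). The 2 paralogs were thus close to parity in lean mice, and Srebf1 was the more counted in ob/ob mice. Srebf2 itself was at 40.3, 42.0, 30.3 and 27.6 CPM in the same order. Its log2 ratios for obesity were -0.41 in GRf/f and -0.60 in GRmKO mice, against 0.23 and 0.38 for Srebf1.

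Thrsp, or Spot 14, a thyroid hormone-induced nuclear protein of lipogenic tissues, was the gene called lower. It stood at 54.1 CPM in lean GRf/f (50.9 to 57.3), 38.3 in lean GRmKO (35.7 to 41.2), 23.5 in ob/ob GRf/f (21.5 to 25.7) and 30.3 in ob/ob GRmKO mice (28.0 to 32.8). Both ob/ob libraries lay below both lean ones, and no intervals overlapped. In GRf/f mice Thrsp fell 2.30-fold with obesity, a log2 ratio of -1.20, or -1.09 relative to the median of all genes. In GRmKO mice the log2 ratio was -0.34, where the median of all genes was -0.21, and was not called. It was -0.13 with TMM factors and -0.12 with DESeq2 size factors, so a fall in GRmKO mice depended on scaling. The difference between the 2 log2 ratios was 0.86 with a counting SE of 0.11, the largest of the 10 genes, and no test of it was possible with 1 library per group. Mid1ip1, the paralog of Thrsp, was looked at after its values were seen. It stood at 35.5, 23.6, 44.8 and 23.0 CPM in the order used above, with no drop in the ob/ob GRf/f library.

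**Figure D3:**
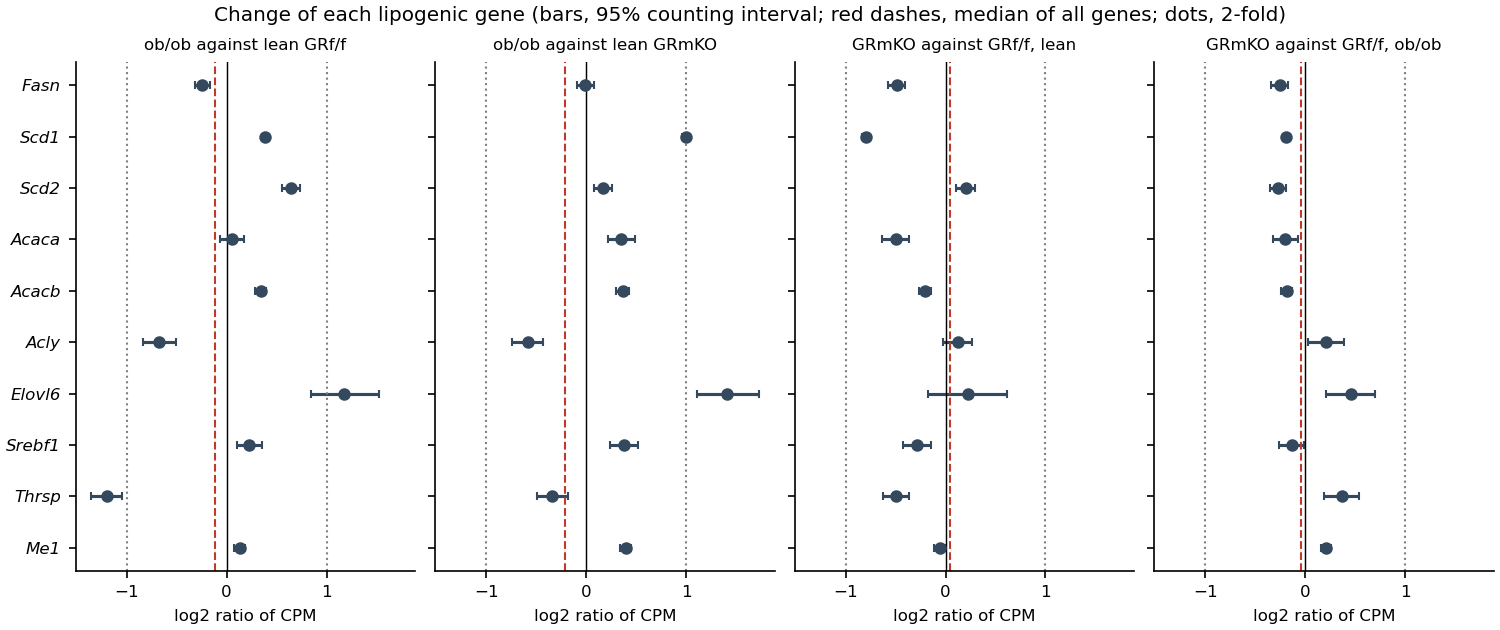
The log2 ratio of CPM of each lipogenic gene in the 4 comparisons, with 95% counting intervals, the median of all 14206 genes (red dashes) and the 2-fold threshold (dots). Elovl6 lies past the threshold in both obesity comparisons, Thrsp only in GRf/f mice at -1.20, and no gene does so between genotypes.

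Obesity in GRf/f mice left the group split. Of the 10 genes, 1 was called higher (Elovl6) and 1 lower (Thrsp), beside 1.52% and 2.7% of all genes. The ratio of ob/ob to lean exceeded 1 for 7 genes, and the group's median log2 ratio was 0.18 against -0.11 for all genes. Obesity in GRmKO mice gave 1 gene called higher (Elovl6) and 0 lower, beside 1.32% and 6.07% of all genes. NOISeq-sim called 0 higher and 1 lower (Thrsp) in GRf/f mice, and 2 higher (Scd1 and Elovl6) and 0 lower in GRmKO mice. The median was 0.36 against -0.21, with 7 genes above 0 by CPM and 8 under the other scalings, where Fasn turned. The summed level of the 10 genes was 1692 CPM in lean GRf/f, 1250 in lean GRmKO, 2014 in ob/ob GRf/f and 1858 in ob/ob GRmKO mice. Scd1 supplied the largest part of each sum. The obesity change was larger in GRmKO than in GRf/f mice for 9 of the 10 genes in signed terms, and Scd2 was the exception at -0.47. For Acacb (0.023, counting SE 0.042), Acly (0.088, 0.116) and Elovl6 (0.234, 0.229) the difference was about the size of its counting SE or smaller. Scd1, Acaca, Acacb, Srebf1 and Me1 had their lowest level in the single lean GRmKO library. The share of all genes with a larger change in GRmKO mice is not given here, so the count has no background. The obesity and genotype comparisons share libraries, so their values are not independent.

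Loss of muscle GR gave no call among the 10 genes. In lean mice 0 were called higher and 0 lower, beside 1.3% and 1.14% of all genes, and NOISeq-sim also called 0. The median log2 ratio was -0.24 against 0.05 for all genes, with 7 genes lower in GRmKO mice. Scd1 (-0.80), Acaca (-0.50), Thrsp (-0.50) and Fasn (-0.49) had the lowest values. In ob/ob mice 0 were called in either direction, beside 1.3% higher and 1.82% lower of all genes, and NOISeq-sim called 0. The median was -0.16 against -0.04, with 6 genes lower and values from -0.27 for Scd2 to 0.46 for Elovl6. Thrsp was lower in GRmKO than in GRf/f mice when lean and higher, by 0.37, when obese.

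Adipocyte markers were lower in GRmKO than in GRf/f mice in both backgrounds. Adipoq, the adiponectin gene, stood at 81.4 CPM in lean GRf/f, 48.3 in lean GRmKO, 80.4 in ob/ob GRf/f and 44.4 in ob/ob GRmKO mice. Plin1, which coats lipid droplets of adipocytes, stood at 58.3, 32.3, 40.4 and 23.0 CPM, and Cidec, a second droplet protein, at 70.4, 26.9, 50.7 and 18.3 CPM. All 3 were lower in each GRmKO library than in its GRf/f control. Over the 11 white adipocyte markers, 10 were lower in GRmKO in lean mice, with a median log2 ratio of -0.81. In ob/ob mice 10 were lower, Adrb3 was level at -0.0013, and the median of the 11 was -0.70. In lean mice 2 of the 11 were called lower, beside 1.14% of all genes, and in ob/ob mice 1, beside 1.82%. In either background 0 were called higher, beside 1.3% of all genes. The summed markers ranged over 1249, 803, 882 and 571 CPM in the order lean GRf/f, lean GRmKO, ob/ob GRf/f and ob/ob GRmKO, and none of the 11 was at 0. In these bulk samples fewer adipocytes and less adipocyte RNA per cell cannot be told apart.

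Ratios within a library set the lipogenic genes against Adipoq first. Scd1 counts were 9.76 times those of Adipoq in lean GRf/f (9.28 to 10.3) and 9.46 times in lean GRmKO mice (8.85 to 10.1), with overlapping intervals. They were 12.9 times (12.3 to 13.6) in ob/ob GRf/f and 20.5 times (19.2 to 22.0) in ob/ob GRmKO mice. For Fasn the ratios were 1.79 and 2.15 in lean and 1.53 and 2.33 in ob/ob GRf/f and GRmKO mice. Between lean and ob/ob GRf/f mice Adipoq was nearly level, whereas the 11 markers together summed to 1249 and 882 CPM. Elovl6 over Adipoq went from 0.0621 (0.0505 to 0.0757) to 0.142 (0.124 to 0.163) and Thrsp over Adipoq from 0.664 (0.615 to 0.716) to 0.293 (0.264 to 0.324). These ratios depended on the marker. From lean GRf/f to lean GRmKO mice, Scd1 over Plin1 went from 13.6 to 14.1, over Cidec from 11.3 to 17.0, and over the sum of the 11 markers from 0.637 to 0.570. Against the 11 markers singly, this ratio was higher in GRmKO mice for 6 and lower for 5. From lean to ob/ob GRf/f mice, Thrsp over marker was 2.27-fold lower with Adipoq, 1.59-fold with Plin1, 1.65-fold with Cidec and 1.62-fold with the sum, and was lower for 9 of the 11 markers. Elovl6 over marker was 2.29-fold higher with Adipoq, 3.26-fold with Plin1, 3.14-fold with Cidec and 3.20-fold with the sum, and was higher for 10 of the 11. From lean to ob/ob GRmKO mice, Thrsp over marker was higher for 7 of the 11 markers and lower for 4. With the sum it was 1.11-fold higher. References other than Adipoq were added after the data had been seen. The part of adipocyte RNA in the genotype values was not tested.

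**Figure D4:**
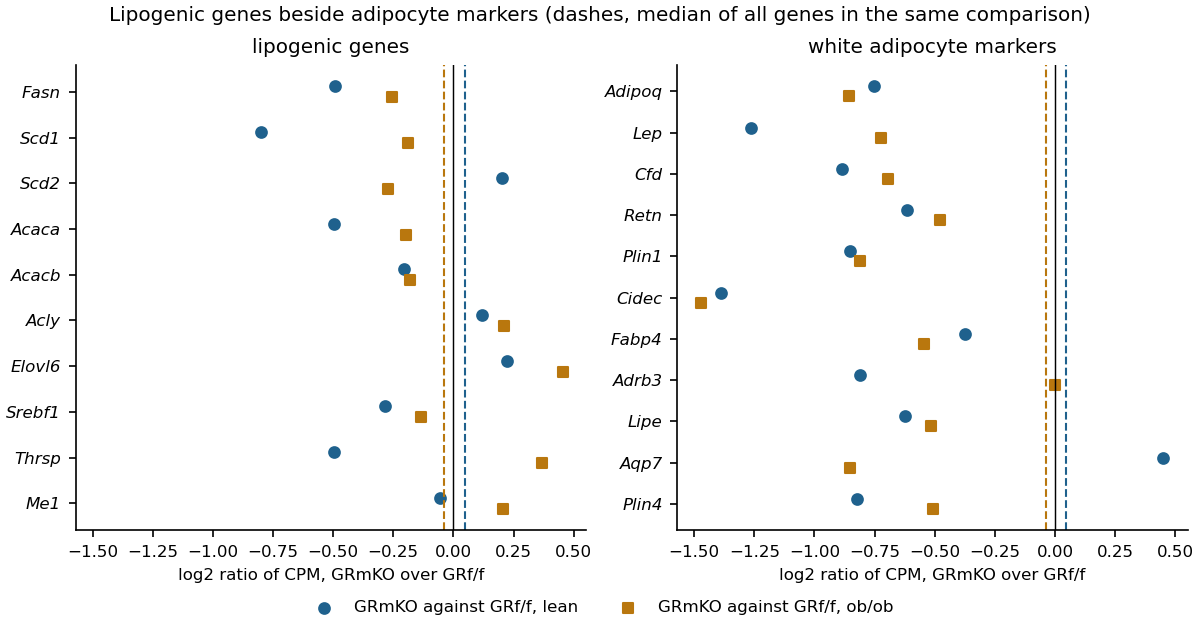
The log2 ratio of GRmKO over GRf/f (horizontal axes) for the 10 lipogenic genes and the 11 white adipocyte markers, in lean mice (circles) and ob/ob mice (squares), with the medians of all genes as dashes. Cidec is below -1 in both backgrounds. Scd1, the lowest lipogenic gene in lean mice at -0.80, lies within the span of the marker values there.

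The white adipocyte markers split with obesity, with 1 of 11 called higher and 2 lower in GRf/f mice (1.52% and 2.7% of all genes) and 1 higher and 3 lower in GRmKO mice (1.32% and 6.07%). Cfd, encoding adipsin, was at 267 and 145 CPM in lean GRf/f and GRmKO mice and at 14.4 and 8.91 CPM in the ob/ob groups, and Lep, encoding leptin, was at 14.1 and 5.89 CPM in lean and 69.6 and 42.1 CPM in ob/ob mice. Slow fibre markers summed to 592, 734, 1239 and 1657 CPM in the order lean GRf/f, lean GRmKO, ob/ob GRf/f and ob/ob GRmKO. Single markers differed. Myh7 was at 63.0, 84.7, 275 and 418 CPM. Myoz2, named after its values were seen, was at 93.4, 83.4, 152 and 125 CPM, lower in each GRmKO library than in its control. The hepatocyte marker Alb was at 4.63, 11.1, 4.63 and 21.5 CPM, and the brown adipocyte gene Ucp1 was at 3 counts or fewer in each library. Markers of macrophages summed to 541, 675, 348 and 248 CPM, with 7 of 8 called lower in ob/ob against lean GRmKO mice, beside 6.07% of all genes, and 0 of 8 in ob/ob against lean GRf/f mice, beside 2.7%. Those of endothelium summed to 508, 592, 398 and 354 CPM, of fibro-adipogenic progenitors to 1646, 1831, 1209 and 883 CPM, and of erythroid cells to 2229, 2127, 970 and 872 CPM. The sum of 8 hepatocyte markers was 192, 127, 25.4 and 42.7 CPM. Cyp2e1 (182, 110, 18.0 and 11.9 CPM, named after its values were seen) was its largest part except in the ob/ob GRmKO library, where Alb was larger. The sum of 5 genes listed as brown adipocyte markers was 448, 493, 257 and 304 CPM. Most of it was Cox8b (412, 462, 211 and 259 CPM, also named after its values were seen). With Ucp1 at 3 counts or fewer, that sum cannot be read as brown adipocyte content. The part of fibre type or of other cells in the obesity values of Elovl6, Thrsp and Acly was not tested.

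The rest of the lipogenic pathway was read from lists beside the 10 genes. Among 16 regulators 0 were called between ob/ob and lean GRf/f mice, beside 1.52% higher and 2.7% lower of all genes. Between ob/ob and lean GRmKO mice, Mlxip, the glucose-sensing transcription factor MondoA, rose from 58.9 to 122 CPM, and Nr1h3, the oxysterol receptor LXR-alpha that activates Srebf1, fell from 9.87 to 4.42 CPM. In GRf/f mice Mlxip was higher with obesity too, at 111 against 68.2 CPM, without a call. Nr1h3 was also called lower in GRmKO than in GRf/f ob/ob mice, from 11.0 to 4.42 CPM. The shares of all genes were 1.32% higher and 6.07% lower for obesity in GRmKO mice, and 1.82% lower for genotype in ob/ob mice. The list medians were -0.04 in GRf/f and -0.07 in GRmKO mice for obesity, and -0.02 in lean and -0.11 in ob/ob mice for genotype. Mlxipl, the carbohydrate response factor ChREBP, looked at after its values were seen, was at 23.3, 34.5, 32.8 and 32.6 CPM in the order of the libraries.

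Of 12 tested genes for citrate, acetyl-CoA and NADPH supply, 1 was called in the 4 comparisons. Pcx, which makes oxaloacetate from pyruvate, was at 112 CPM in lean GRf/f and 54.4 CPM in lean GRmKO mice. Medians of this list lay between -0.11 and 0.01. Of 14 tested elongases and desaturases other than the members, 0 were called in any comparison, with medians from -0.42 to -0.03. At between 1.14% and 6.07% of all genes called per direction, such a count is near the background.

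Downstream, 1 of 15 triglyceride synthesis genes was called, beside between 1.14% and 6.07% of all genes per direction and comparison. The list medians lay between -0.19 and 0.04. Acsl5, an acyl-CoA synthetase, fell from 22.1 CPM in lean to 10.7 CPM in ob/ob GRmKO mice. Gpam and Dgat2, which catalyse the first and last steps of triglyceride synthesis and were looked at after their values were seen, were higher in ob/ob than in lean mice in both genotypes without a call. Gpam was at 95.7, 119, 127 and 202 CPM, and Dgat2 at 103, 72.9, 155 and 98.1 CPM. Dgat1, also of the last step, went the other way, at 16.3, 15.8, 11.4 and 12.2 CPM, likewise without a call. Dgat2 was lower in both GRmKO libraries than in their controls and Gpam higher.

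Among 12 genes of malonyl-CoA turnover and AMPK, the kinase that phosphorylates the carboxylases, medians lay between -0.002 and 0.061 and 2 genes were called. Between 1.14% and 6.07% of all genes were called per direction and comparison. Prkag3, the muscle gamma subunit of AMPK, was higher in GRmKO than in GRf/f ob/ob mice, at 267 against 129 CPM. Cpt1c, the brain isoform of the malonyl-CoA-sensitive transferase, fell to 0.569 CPM in ob/ob GRmKO mice from 4.63 CPM in lean GRmKO and 3.80 CPM in ob/ob GRf/f mice. Cpt1b, the muscle isoform, and Mlycd, which degrades malonyl-CoA, were looked at after their values were seen. Cpt1b lay between 300 and 371 CPM and Mlycd between 87.81 and 95.003 CPM, both uncalled.

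Sterol synthesis, the arm under SREBP-2, did not share the positive medians of the 10 genes. Its 16 genes had median log2 ratios for obesity of -0.24 in GRf/f and -0.25 in GRmKO mice, against -0.11 and -0.21 for all genes. The value in GRmKO mice was thus near that of all genes. For genotype the medians were 0.07 in lean and -0.01 in ob/ob mice, against 0.05 and -0.04. In GRmKO mice Dhcr7, a reductase of the last steps of cholesterol synthesis, rose from 1.78 to 9.81 CPM with obesity and Stard4, a sterol carrier, fell from 10.7 to 4.23 CPM. In lean mice Dhcr7 was lower in GRmKO than in GRf/f mice, at 1.78 against 7.24 CPM. No other gene of this list was called, where between 1.14% and 6.07% of all genes were called per direction and comparison.

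**Figure D5:**
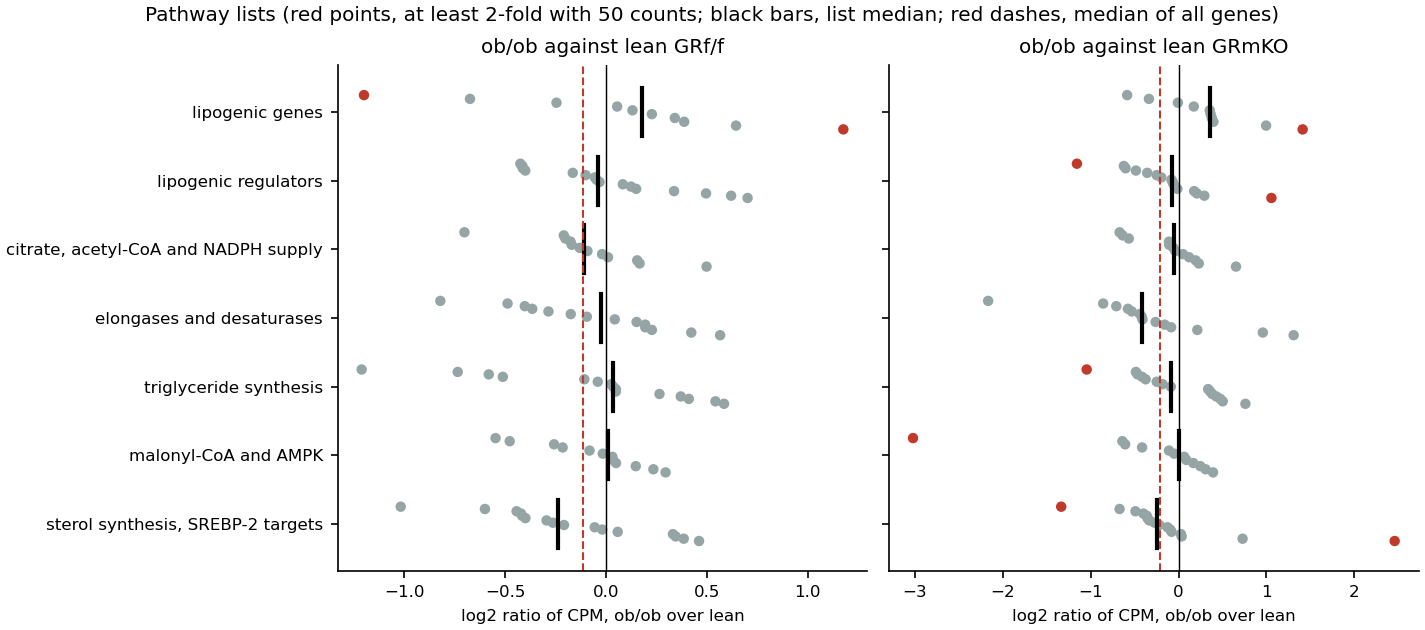
The log2 ratio of CPM of ob/ob over lean for the tested genes of 7 lists, in GRf/f (left) and GRmKO mice (right, different horizontal scale), with called genes in red, list medians as black bars and the median of all genes as red dashes. The lipogenic genes have the highest list median in both panels, at 0.18 and 0.36.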

How the data were processed

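RNA of gastrocnemius muscle, pooled from 3 mice per group, was sequenced by the authors as 100-bp paired-end reads, 1 library for each of 4 groups assigned from the sample labels. The authors quantified protein-coding GENCODE transcripts with Salmon (version 1.2.1) and imported them into R (version 3.5.0) with tximport as length-scaled TPM. The mm10 build is given in the submitters' processing notes. Expected counts, without normalisation across libraries, were deposited for 22252 gene names, and a duplicated name kept its largest entry.

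Expected counts were divided by the library total (CPM) and by the length of the listed transcript for order between genes. Intervals were exact Poisson for levels and exact conditional binomial (Clopper-Pearson) for ratios, on counts rounded to whole numbers, at 95%, and cover counting error only. Calls needed counts above 0 in all 4 libraries, a 2-fold difference and 50 counts in 1 library of the pair. No p-value was computed, since each group was 1 library. The script was tested on simulated data. Coordinates and transcripts were from GENCODE on GRCm38 and start-site windows from RefSeq on GRCm38.p6.

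All 10 genes were described. From each pathway list the called gene with the largest change in each direction and comparison was named. Defining markers were named for the adipocyte, hepatocyte, Schwann cell, slow fibre and muscle lists. The macrophage, endothelial, progenitor and erythroid lists were described without naming single genes. The members and lists were chosen with earlier results of these data known. One marker gene of the Schwann cell list is not reported here and was left out of its sums.

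Alternatives were edgeR 4.0.16 TMM factors and DESeq2 1.42.0 size factors (R 4.3.3, on rounded expected counts, for scaling only), upper quartile scaling, a total without the 50 most abundant genes, unscaled counts, no filter, at least 10 counts in every library, 1.5-fold, no count minimum, the longest transcript, other adipocyte markers in place of Adipoq (added after the data had been seen), and NOISeq-sim at a probability of 0.9, written from its description in Python 3.11.15 (numpy 2.4.6, numba 0.67.0). Intervals used scipy 1.17.1 and figures matplotlib 3.10.9.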

Additional observations from a re-analysis of the deposited data

How the results depend on the processing

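Of 80 recomputed counts of called lipogenic genes, 68 were within 1.5 times the reported count, and a count that stayed at 0 was taken as within. No filter, at least 10 counts in every library and no count minimum could not change these counts. The lowest value of any lipogenic gene was 105 counts, so agreement under these settings was fixed in advance. The reported count was 0 in both directions of both genotype comparisons, and for lower in ob/ob against lean GRmKO mice. For ob/ob against lean GRmKO mice, the number called higher went from 1 to 2 with TMM factors, DESeq2 size factors, upper quartile scaling, the total without the 50 most abundant genes, unscaled counts, a 1.5-fold threshold and NOISeq-sim, with Scd1 joining Elovl6 each time. Its CPM ratio lay just under 2-fold. A 1.5-fold threshold also gave 2 higher (Scd2, Elovl6) and 2 lower (Acly, Thrsp) for ob/ob against lean GRf/f mice, 1 lower (Acly) for ob/ob against lean GRmKO mice and 1 lower (Scd1) for GRmKO against GRf/f in lean mice. NOISeq-sim gave 0 higher for ob/ob against lean GRf/f mice, where Elovl6 had a probability of 0.850, and the cause was not tested. Over all genes, NOISeq-sim called 94 higher and 136 lower in that comparison, against 216 and 384. For ob/ob against lean GRmKO mice it called 95 higher and 317 lower, against 187 and 863, and DESeq2 size factors gave 328 and 496. For GRmKO against GRf/f it called 45 higher and 53 lower in lean mice, against 185 and 162, and 59 and 89 in ob/ob mice, against 185 and 259.

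Of 200 recomputed log2 ratios, 55 moved beyond their counting interval and 5 turned sign, all of Fasn for ob/ob against lean GRmKO mice. With the longest transcript, 4 of 40 ranks by level changed. Leaving out a library was not done, since each group had 1. No paired analysis was possible because each group had 1 library. Depth limits Elovl6 most, with 105 counts in its lowest library.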
